A study of Arabidopsis thaliana with 15 samples.

Results

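Described here are 10 genes of Arabidopsis thaliana that seedlings are known to switch on when sulfate runs short, of 33602 loci in the count files. They are SDI1 (AT5G48850), SDI2 (AT1G04770), LSU1 (AT3G49580), LSU2 (AT5G24660), the sulfate transporters SULTR1;1 (AT4G08620), SULTR1;2 (AT1G78000) and SULTR4;2 (AT3G12520), the beta-glucosidase BGLU28 (AT2G44460), and the enzymes APR3 (AT4G21990) and SERAT3;2 (AT4G35640). They were picked by locus with their normalised counts (CPM, counts per 1000000) over the 5 genotypes in view, so their levels in these libraries are given as a description and carry no test. All 10 were among the 20477 loci with enough counts to be analysed. Sulfur pathway genes outside the 10 were tested, in a list chosen with earlier results of these data known.

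Plants take up sulfate through root transporters, store it in vacuoles, activate it with ATP, reduce it in plastids and fix the sulfide in cysteine, from which glutathione and methionine are made. When sulfur is short, the transcription factor SLIM1 takes part in raising transporters, LSU and SDI genes, while synthesis of glucosinolates, the sulfur-rich defence compounds of this plant family, is turned down and their breakdown is turned up. The 10 genes are therefore used as readouts of low sulfur status. No sulfur treatment is described for these samples, and sulfur itself was not measured.

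The mRNA came from whole Col-0 seedlings, roots included, after 3 weeks on diluted MS medium in short days (8 h light, 16 h dark). Groups of 3 biological repeats each were lhp1, ebs shl, ebs shl lhp1, emf1 and wild type (WT), giving 15 libraries. LHP1, EBS and SHL are readers of histone marks and EMF1 acts with Polycomb complexes, which keep developmental genes silent. The labels name no alleles and do not say how many seedlings made up a library. RNA of lhp1, ebs shl and WT was prepared with the RNeasy Plus Mini kit, and RNA of ebs shl lhp1 and emf1 with the miRNeasy Micro kit. In comparisons of ebs shl lhp1 or emf1 with WT, the kit and the genotype therefore cannot be told apart. The comparisons of lhp1 with WT, ebs shl with WT, and ebs shl lhp1 with emf1 are within 1 kit.

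Library totals were 11730989 to 16247262 counts. LHP1 was at 10.1 to 10.8 CPM in lhp1, against 18.6 to 20.8 in WT, but at 19.3 to 23.4 in ebs shl lhp1. EBS was at 1.67 to 3.37 CPM in ebs shl and 1.99 to 2.51 in ebs shl lhp1, against 24.1 to 27.4 in WT. SHL was at 204 to 225 CPM in ebs shl and 160 to 222 in ebs shl lhp1, against 38.1 to 43.6 in WT. Transcript levels of SHL in both, and of LHP1 in ebs shl lhp1, thus did not lie below WT. Since the alleles are not named, these levels neither bear out nor contradict the labels. For that reason these 2 groups are written as labelled ebs shl and labelled ebs shl lhp1 below, which does not mean that samples were mislabelled. The plots carry the labels. EMF1 was at 21.8 to 23.9 CPM in emf1, against 27.5 to 28.7 in WT. It was at 43.6 to 49.6 CPM in lhp1, 116 to 121 in labelled ebs shl and 71.8 to 87.1 in labelled ebs shl lhp1. SHL was at 68.4 to 80.6 CPM in emf1.

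Whole seedlings hold roots, where several of the 10 genes are known to be expressed. Of 14 tested root markers, 1 fell in labelled ebs shl, 11 fell in labelled ebs shl lhp1 and 13 fell in emf1 by edgeR's quasi-likelihood test, where 2.52%, 35.7% and 33.9% of all genes fell. Libraries lay wholly below WT for 4 of the 14 in lhp1 and for 7 in labelled ebs shl, where 9.51% and 14% of all genes did, and the median log2 fold change of the 14 was -0.31 and -0.49. Summed over 16 markers, root transcripts ranged from 44.6 to 68.9 CPM in lhp1, 39.3 to 46.8 in labelled ebs shl, 11.6 to 24.2 in labelled ebs shl lhp1, 10.9 to 17.2 in emf1 and 52.4 to 74.4 in WT. The root marker AGP30 had no count in labelled ebs shl lhp1 or in emf1. MYB36, also in these sums, averaged 5.84 CPM in labelled ebs shl lhp1, 5.19 in emf1 and 4.12 in WT. MYB36 did not pass the test in either mutant. In seedling RNA, fewer root cells and less RNA of a gene per root cell cannot be told apart, and the part of root content in the results below was not tested. Of 8 leaf markers, 4 fell in labelled ebs shl lhp1, while 1 fell and 5 rose in emf1, where 30.7% of all genes rose.

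Of the 10 genes, 6 averaged under 10% of the WT mean in labelled ebs shl lhp1 and 5 did so in emf1, while none did in lhp1 or labelled ebs shl. The share of all genes under that mark was not computed. The genes were picked with these values in view, so nothing is read from these counts. In WT the genes spanned a wide range of levels. Per kilobase of exon, APR3 averaged 168 ± 21.7 CPM (SD, n = 3, as for all genotype means here), SDI2 60.3 ± 12.8, LSU2 60.2 ± 5.94, SDI1 35.3 ± 13.6, SULTR1;2 15.8 ± 2.59 and LSU1 14.6 ± 3.73 CPM per kilobase. The other 4 were lower, with SERAT3;2 at 4.90 ± 0.709, SULTR4;2 at 4.12 ± 0.676, BGLU28 at 1.46 ± 0.337 and SULTR1;1 at 0.379 ± 0.235 CPM per kilobase.

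**Figure D1:**
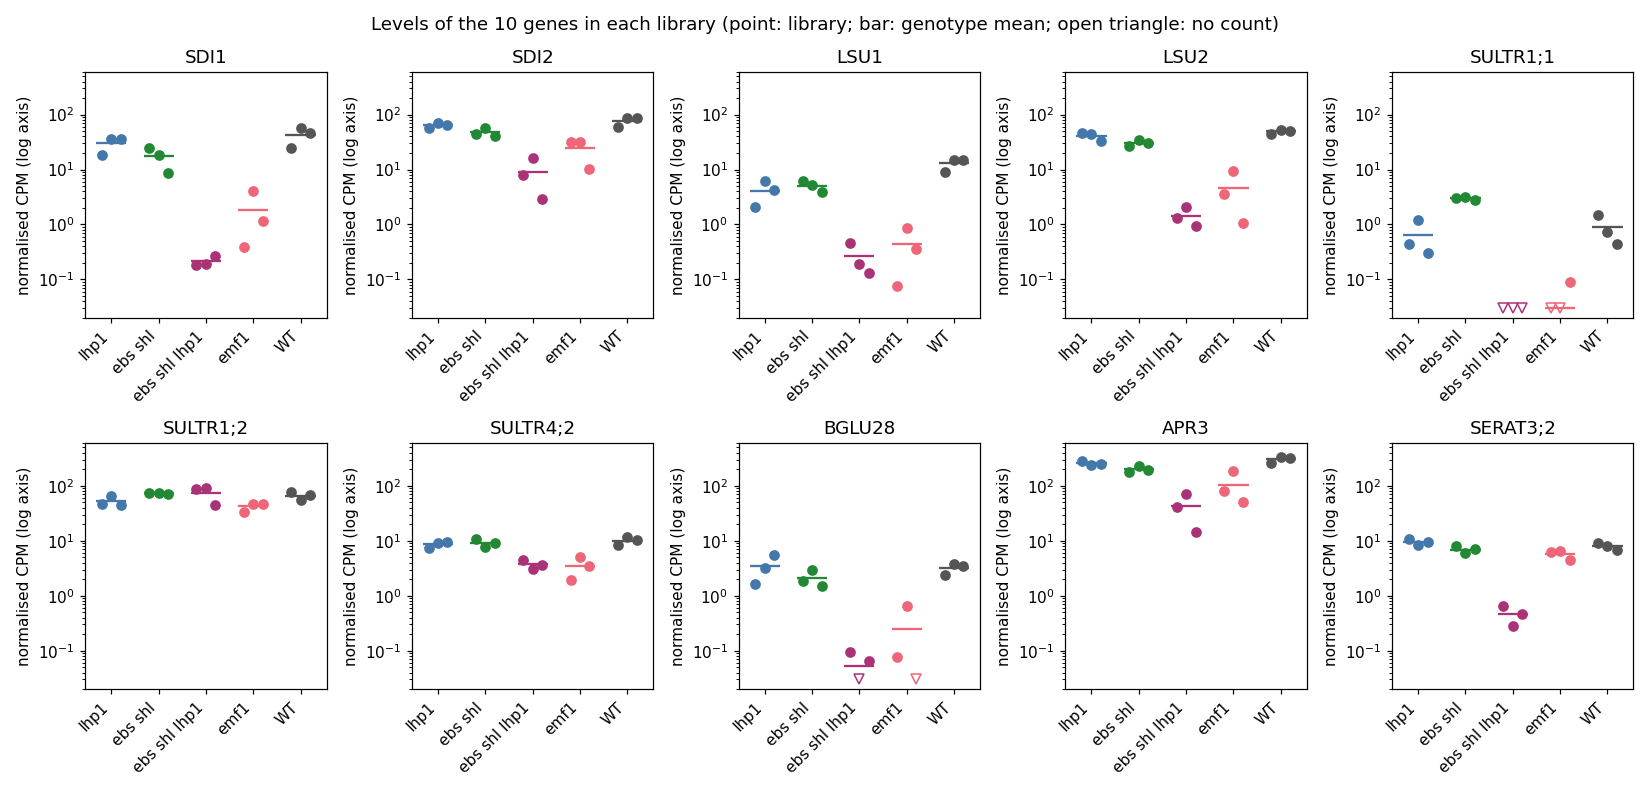
Normalised CPM (log axis) of each gene in the 15 libraries, by genotype, with WT at the right. Points are libraries, bars are genotype means and open triangles at the foot of a panel are libraries with no count. In 9 panels the libraries of labelled ebs shl lhp1 lie below all WT libraries, and in SULTR1;2 they overlap them.

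SDI1 and SDI2 are proteins with tetratricopeptide repeats, and SDI1 is known to hold back glucosinolate synthesis by binding the factor MYB28. SDI1 was at 18.2, 36.6 and 36.6 CPM in lhp1 and at 24.7, 18.7 and 8.65 CPM in labelled ebs shl. It was at 0.186, 0.190 and 0.264 CPM in labelled ebs shl lhp1, 0.386, 4.01 and 1.16 CPM in emf1, and 25.0, 57.3 and 46.4 CPM in WT. The lhp1 libraries overlapped WT, and those of each other mutant lay below all WT libraries. Labelled ebs shl lhp1 held 8 counts over its 3 libraries, against 2090 in WT. The fitted log2 fold change against WT was -0.49 ± 0.45 (SE) in lhp1, -1.31 ± 0.46 in labelled ebs shl, -7.56 ± 0.80 in labelled ebs shl lhp1 and -4.49 ± 0.58 in emf1. The SE of every log2 fold change here rests on a spread estimated over the libraries of all genotypes. It is therefore not the precision of the compared groups alone. Of the 10 genes, SDI1 had the lowest fitted value in labelled ebs shl lhp1, with a ratio of means of 201.

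SDI2 followed the same order of genotypes with smaller fold differences. It was at 58.1, 71.2 and 65.2 CPM in lhp1, 45.3, 58.2 and 41.2 in labelled ebs shl, 8.00, 16.4 and 2.91 in labelled ebs shl lhp1, 31.4, 31.2 and 10.2 in emf1, and 58.5, 85.4 and 88.2 in WT. The log2 fold change was -0.25 ± 0.42, -0.68 ± 0.42, -3.13 ± 0.48 and -1.66 ± 0.44 in lhp1, labelled ebs shl, labelled ebs shl lhp1 and emf1. Without replicate 2 of labelled ebs shl lhp1 its value there was -3.87. For SDI1 every emf1 library lay above those of labelled ebs shl lhp1, whereas for SDI2 these overlapped.

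LSU1 and LSU2 encode small coiled-coil proteins of a plant-specific family named for the response to low sulfur. LSU1 was at 2.08, 6.16 and 4.21 CPM in lhp1 and 6.16, 5.27 and 3.85 CPM in labelled ebs shl. It was at 0.465, 0.190 and 0.132 CPM in labelled ebs shl lhp1, 0.0772, 0.874 and 0.356 CPM in emf1, and 9.13, 14.7 and 15.02 CPM in WT. All 4 mutants lay below every WT library. LSU1 was the member with the largest deviation in lhp1, at a log2 fold change of -1.63 ± 0.39, which was close to its value of -1.35 ± 0.39 in labelled ebs shl. In labelled ebs shl lhp1 and emf1 it was -5.65 ± 0.58 and -4.83 ± 0.53, from 9 and 17 counts against 630 in WT. Without replicate 1 of labelled ebs shl lhp1 its value there was -6.28.

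LSU2 lay above LSU1 per kilobase in every genotype, at 49.7 and 4.68 CPM per kilobase in lhp1 and 60.2 and 14.6 in WT. LSU2 was at 45.5, 43.6 and 33.6 CPM in lhp1, 27.0, 34.7 and 31.0 in labelled ebs shl, 1.303, 2.09 and 0.924 in labelled ebs shl lhp1, 3.63, 9.32 and 1.07 in emf1, and 44.1, 53.5 and 51.0 in WT. Here lhp1 overlapped WT at a log2 fold change of -0.28 ± 0.36, and the others lay below it at -0.68 ± 0.36, -5.15 ± 0.50 and -3.37 ± 0.42.

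SULTR1;1 and SULTR1;2 are the high-affinity transporters that bring sulfate into root cells, SULTR1;1 being known for low expression when sulfate is ample. SULTR1;1 was the 1 member of which every labelled ebs shl library lay above WT. It was at 0.445, 1.18 and 0.305 CPM in lhp1, 3.08, 3.15 and 2.79 CPM in labelled ebs shl, and 1.51, 0.733 and 0.440 CPM in WT. Labelled ebs shl lay above all WT libraries, with 142 counts against 44, a ratio of means of 3.36 and a log2 fold change of 1.73 ± 0.49. Without WT replicate 1 that log2 fold change was 2.34. In labelled ebs shl lhp1 SULTR1;1 had no count in any library, which at a floor of 3 counts over the group is at least 10.9-fold lower than in WT. In emf1 it had 1 count, in replicate 3, and was 34.2-fold lower than in WT (exact 95% counting interval 5.82 to 1380, counting error only).

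SULTR1;2 had the smallest ratio of highest to lowest genotype mean among the 10, with means between 75.4 ± 26.7 CPM in labelled ebs shl lhp1 and 42.1 ± 7.41 in emf1. It was at 46.5, 66.1 and 44.2 CPM in lhp1, 74.0, 74.5 and 71.2 in labelled ebs shl, 88.5, 93.0 and 44.6 in labelled ebs shl lhp1, 33.6, 46.7 and 46.2 in emf1, and 76.6, 54.9 and 67.2 in WT. The emf1 libraries lay below all WT libraries, at a log2 fold change of -0.65 ± 0.24. The other mutants overlapped WT, at -0.34 ± 0.24 in lhp1, 0.15 ± 0.24 in labelled ebs shl and 0.18 ± 0.24 in labelled ebs shl lhp1. The last value was 0.46 without replicate 3 of labelled ebs shl lhp1. Thus, where SULTR1;1 had no count, its paralog lay above every WT library in 2 of 3 libraries and below every WT library in 1.

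SULTR4;2 releases sulfate from the vacuole. It was at 7.34, 9.08 and 9.33 CPM in lhp1, 10.6, 7.83 and 9.20 in labelled ebs shl, 4.56, 3.13 and 3.63 in labelled ebs shl lhp1, 1.93, 5.17 and 3.47 in emf1, and 8.28, 11.54 and 10.4 in WT. Labelled ebs shl lhp1 and emf1 lay below WT by similar amounts, with log2 fold changes of -1.41 ± 0.27 and -1.51 ± 0.27, and overlapped each other. The values in lhp1 and labelled ebs shl were -0.23 ± 0.25 and -0.12 ± 0.25.

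APR3 is 1 of 3 plastid APS reductases, which turn activated sulfate into sulfite and are a main control point of the pathway. It was at 283, 243 and 253 CPM in lhp1, 175, 231 and 192 in labelled ebs shl, 41.1, 71.6 and 14.7 in labelled ebs shl lhp1, 79.1, 183 and 50.2 in emf1, and 264, 342 and 315 in WT. Levels in lhp1 overlapped those in WT and the other 3 mutants lay below it. The log2 fold changes were -0.24 ± 0.45, -0.62 ± 0.45, -2.86 ± 0.49 and -1.56 ± 0.46 in lhp1, labelled ebs shl, labelled ebs shl lhp1 and emf1. Repeats of labelled ebs shl lhp1 were far apart, and its value was -2.44 without replicate 3 and -3.47 without replicate 2.

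SERAT3;2 is a serine acetyltransferase, of the enzymes that make the carbon skeleton of cysteine. It was at 10.9, 8.28 and 9.57 CPM in lhp1, 7.92, 5.93 and 6.97 in labelled ebs shl, 0.651, 0.285 and 0.462 in labelled ebs shl lhp1, 6.18, 6.63 and 4.54 in emf1, and 9.01, 8.12 and 6.72 in WT. Labelled ebs shl lhp1 lay below every other library of the study, at a log2 fold change of -4.07 ± 0.27 against WT, while emf1 lay just below WT at -0.45 ± 0.19. The neighbouring gene PSAT overlaps SERAT3;2 on the opposite strand by 144 bases, and since the strand setting of the counting is not known, shared reads cannot be told apart. PSAT averaged 34.1 CPM in labelled ebs shl lhp1, 15.3 in emf1 and 55.9 in WT, a different order from that of SERAT3;2. How far shared reads entered either level was not tested.

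BGLU28 is a beta-glucosidase that is known to break down glucosinolates under sulfur shortage. It was at 1.63, 3.24 and 5.55 CPM in lhp1, 1.89, 3.00 and 1.51 in labelled ebs shl, 0.0931, 0 and 0.0660 in labelled ebs shl lhp1, 0.0772, 0.655 and 0 in emf1, and 2.36, 3.72 and 3.52 in WT. Labelled ebs shl lhp1 held 2 counts and was 58.2-fold lower than WT (exact 95% counting interval 15.8 to 485, counting error only). In emf1 it had 10 counts, mostly from replicate 2, and was 13.1-fold lower than in WT. Without that replicate 1 count was left, and emf1 averaged 0.0386 CPM. The libraries of lhp1 and labelled ebs shl overlapped WT, with log2 fold changes of 0.13 ± 0.49 and -0.60 ± 0.51.

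Counted over the 10, libraries of lhp1 lay below all WT libraries for 1 gene (LSU1), where 9.51% of all analysed genes did. Libraries of labelled ebs shl lay below WT for 5 (SDI1, SDI2, LSU1, LSU2 and APR3), where 14% of all genes did, and above it for 1, where 16.6% did. Libraries of labelled ebs shl lhp1 lay below WT for 9, where 37.1% of all genes did, and those of emf1 for all 10, where 36.1% did. The genes were picked on these same values, so nothing is read from these counts. The median fitted log2 fold change of the 10 was -0.27 in lhp1, -0.61 in labelled ebs shl, -4.61 in labelled ebs shl lhp1 and -2.52 in emf1, and over all genes it lay between -0.033 and 0.0031. With SULTR1;1 at its bound, the median in labelled ebs shl lhp1 was -3.76. The 4 comparisons share the WT libraries.

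**Figure D2:**
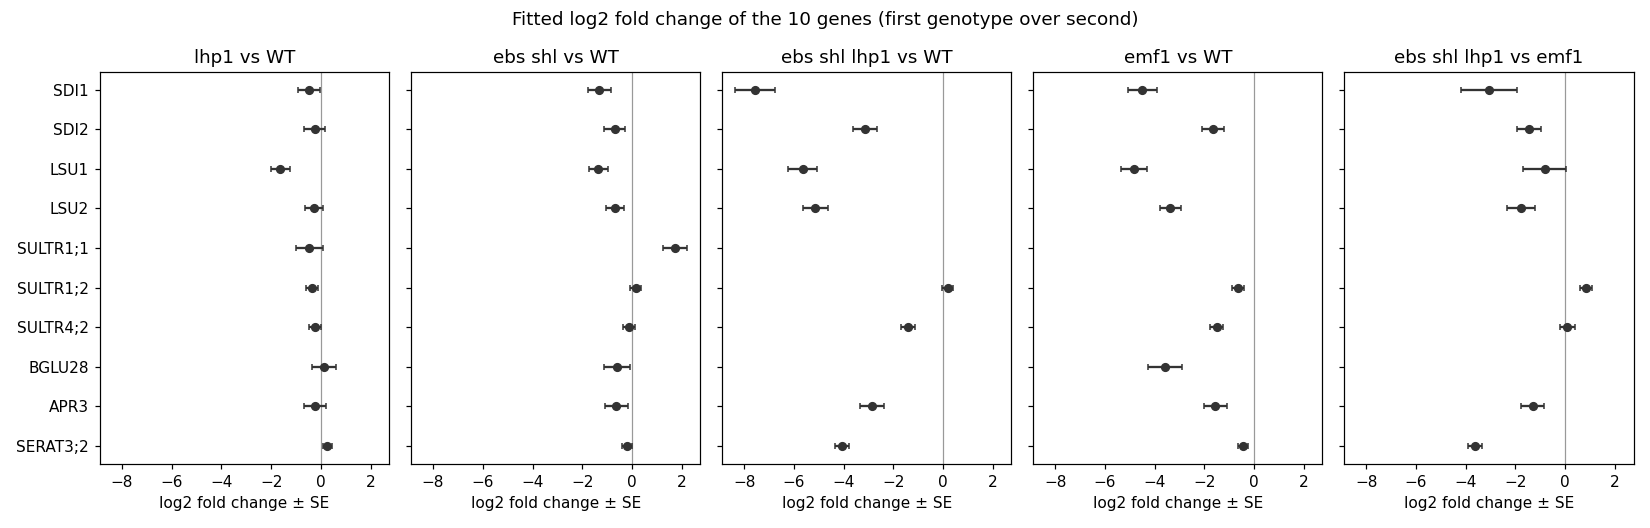
Fitted log2 fold change (first genotype over second) with its SE, from a spread shared over all genotypes, for each gene in the 5 comparisons. Genes with 3 or fewer counts in either group are left out of that panel. In the panel of labelled ebs shl lhp1 against WT, SDI1 lies at -7.56 and SULTR1;2 at 0.18.

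Labelled ebs shl lhp1 and emf1 had RNA from the same kit. Of the 10 genes, 2 lay lower in every library of labelled ebs shl lhp1 than in any of emf1, where 22.2% of all genes did. These were SDI1, with a log2 fold change of -3.06 ± 1.11, and SERAT3;2, with -3.61 ± 0.28. The other genes overlapped, at -1.46 ± 0.48 for SDI2, -1.78 ± 0.56 for LSU2, -1.303 ± 0.47 for APR3, -0.82 ± 0.87 for LSU1, 0.09 ± 0.29 for SULTR4;2 and 0.84 ± 0.24 for SULTR1;2. BGLU28 also overlapped, with 2 counts against 10, and was 4.803-fold lower in labelled ebs shl lhp1 (exact 95% counting interval 1.02 to 45.1, counting error only). Without emf1 replicate 2 its direction turned, to a fitted 0.35 from 2 counts against 1. SULTR1;1 gives no ratio here, with 0 counts and 1 count. With emf1 replicate 2 left out, the value was -1.73 for SDI1, -0.79 for LSU2, -0.62 for APR3 and 0.25 for LSU1, and the median of the 10 was -0.70 in place of -1.62. Without replicate 2 of labelled ebs shl lhp1 the value was -2.28 for SDI2 and -1.97 for APR3, and without its replicate 1 it was -1.52 for LSU1. Over the 9 genes with counts enough for a ratio, the median with all libraries was -1.46. The value for SERAT3;2 was between -3.93 and -3.46 under every setting tried.

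The 10 genes also differed between repeats of a genotype. In emf1, replicate 2 was highest for 8 of the 10, while it was highest for 36.7% of all genes, and the 10 genes summed to 156, 287 and 117 CPM in emf1 replicates 1 to 3. Root marker sums of these libraries were 10.9, 15.3 and 17.2 CPM. In WT, replicate 1 was lowest for 7 of the 10, while it was lowest for 36.9% of all genes. It was highest for the other 3 (SULTR1;1, SULTR1;2 and SERAT3;2), while it was highest for 35.9% of all genes. The root marker sum of WT replicate 1 was the highest of all 15 libraries at 74.4 CPM. In labelled ebs shl lhp1 the sums were 145, 187 and 67.7 CPM, beside root marker sums of 21.2, 11.6 and 24.2 CPM. Against WT, emf1 without replicate 2 gave -5.81 for SDI1, -5.89 for LSU1, -4.35 for LSU2 and -2.23 for APR3 on the log2 scale.

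**Figure D3:**
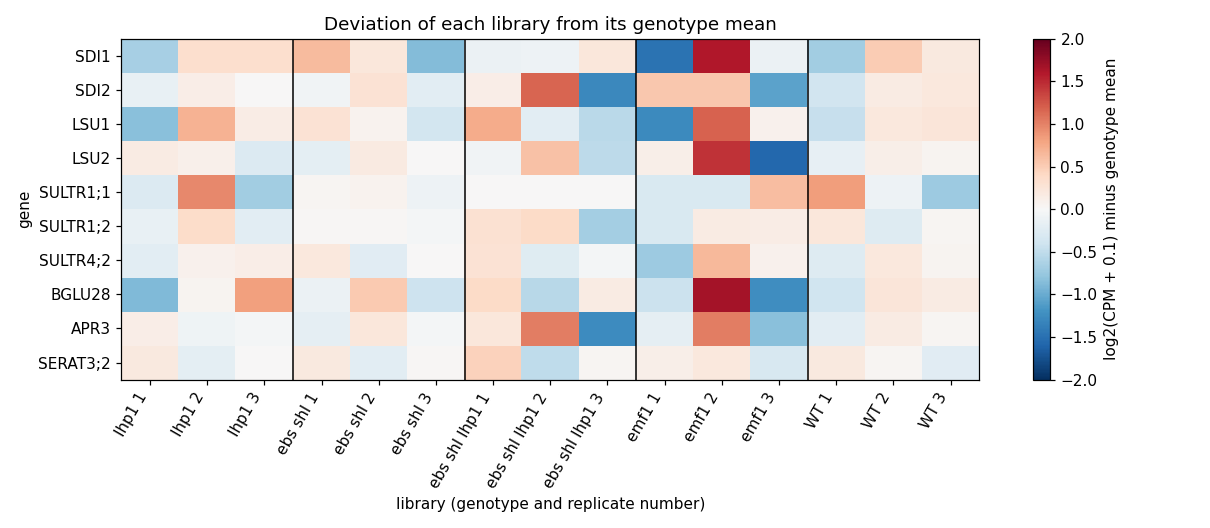
Deviation of each library from its genotype mean, as log2(CPM + 0.1), for each gene (down) and library (across, WT at the right), with colours ending at 2 in either direction. The column of emf1 replicate 2 is red for every gene but SULTR1;1, and that of labelled ebs shl lhp1 replicate 3 is dark blue for SDI2 and APR3.

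The rest of the sulfur pathway was followed in a list of 66 genes outside the 10, of which 59 could be tested. The list holds paralogs of the 10 and was chosen with earlier results of these data known. Its tests are therefore no independent support for the 10. A gene is called changed where edgeR's quasi-likelihood test, with p-values adjusted over all 20477 genes, gave less than 0.05. Some pathway genes named below overlap annotated genes on the opposite strand, which leaves their levels uncertain. The overlap is 1007 bases for APR2, 663 for SULTR2;2, 305 for UGT74C1, 162 for GGCT2;2 and 140 for SULTR3;4. It is 74 bases for APS4, 51 for SERAT2;1, 21 for APR1, 16 for APS3 and 1 for SLIM1. Single numbers given for a rise or fall below are on the log2 scale. In lhp1, 1 rose and 1 fell, where 0.772% of all genes rose and 0.542% fell. In labelled ebs shl 2 rose and 4 fell, where 5.31% of all genes rose and 2.52% fell. Labelled ebs shl lhp1 had 16 that rose and 35 that fell, where 34.6% of all genes rose and 35.7% fell. In emf1 12 rose and 32 fell, where 30.7% rose and 33.9% fell. The list's median log2 fold change was -1.07 in labelled ebs shl lhp1 and -0.75 in emf1, against medians of -0.017 and -0.033 over all genes. Over all genes 49.2% of the calls in labelled ebs shl lhp1 and 47.5% of those in emf1 were higher, and these shares were 39.9% and 36.3% with upper-quartile scaling, which moved the median of all genes to -0.19 and -0.20.

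**Figure D4:**
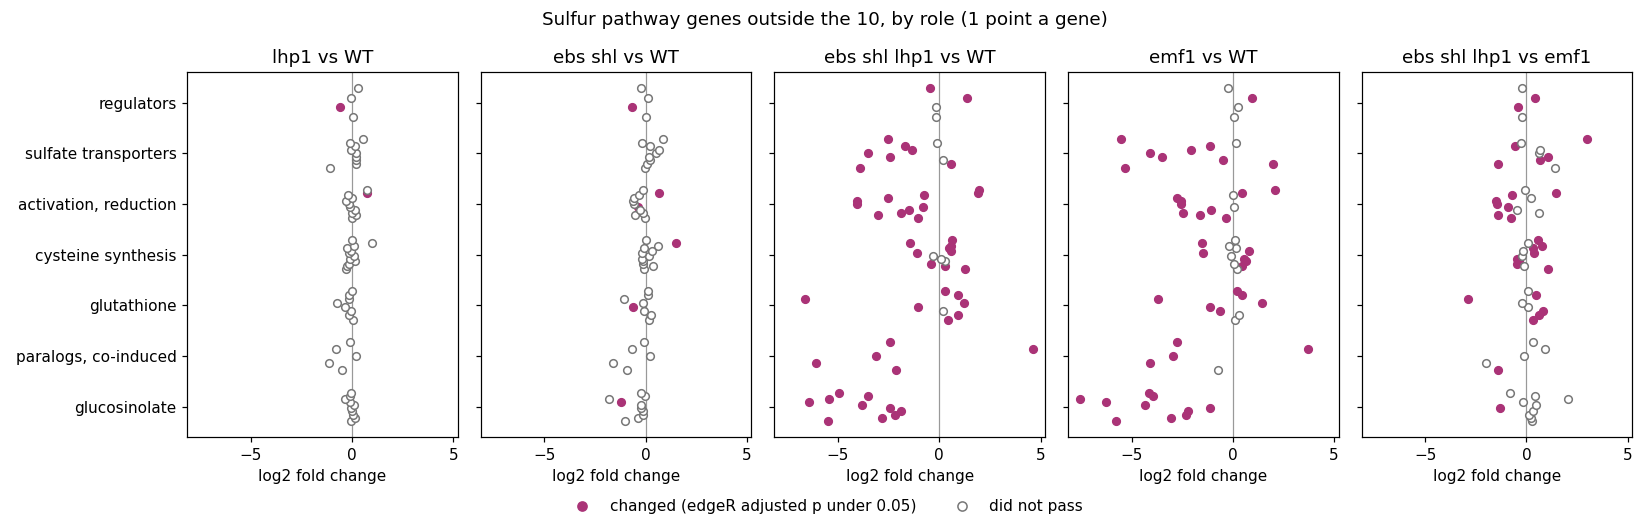
Log2 fold change (first genotype over second) of the 59 tested pathway genes outside the 10, 1 point a gene, by role and comparison; filled points passed edgeR's quasi-likelihood test. All 10 glucosinolate genes are filled and left of 0 in the panels of labelled ebs shl lhp1 and emf1 against WT, while cysteine and glutathione genes lie on both sides.

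Of 4 listed regulators, 1 rose and 1 fell in labelled ebs shl lhp1, and 1 rose in emf1. SLIM1, the main regulator of the sulfur deficiency response, averaged 21.5 ± 1.57 CPM in lhp1, 21.7 ± 2.34 in labelled ebs shl, 19.0 ± 1.35 in labelled ebs shl lhp1, 21.9 ± 1.98 in emf1 and 21.1 ± 3.48 in WT, and did not pass the test in any comparison; it was named after its values were seen. The related ethylene factor EIN3 rose in labelled ebs shl lhp1, to 306 ± 11.8 CPM, and in emf1, to 228 ± 31.5 CPM, against 117 ± 10.3 CPM in WT. EIL1 fell in lhp1, by 0.58 on the log2 scale, and in labelled ebs shl, by 0.67. The call in lhp1 was lost in 5 of the 6 fits without 1 library, which left out WT replicate 2 or 3 or any lhp1 replicate, and with 2 genotypes only. HY5, a light signalling factor that also acts on APR genes, fell by 0.48 in labelled ebs shl lhp1, a call lost without WT replicate 1, without replicate 1 or 3 of that mutant and with 2 genotypes only. The 6 MIR395 precursors, whose microRNA targets ATP sulfurylases and SULTR2;1, held 0 to 7 counts per genotype in all and were not tested.

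Sulfate transporters outside the 10 were mostly lower in labelled ebs shl lhp1, with 6 of 9 falling and 1 rising, and in emf1, with 7 falling and 1 rising. SULTR3;1, a chloroplast envelope transporter, averaged 2.30 ± 1.22 CPM in labelled ebs shl lhp1 and 1.46 ± 1.38 in emf1, against 26.1 ± 3.58 in WT. SULTR3;5, which helps move sulfate from root to shoot, averaged 0.890 ± 0.655 CPM in labelled ebs shl lhp1 and lay between 0 and 0.154 CPM in emf1, against 5.21 ± 0.904 in WT. SULTR4;1, the vacuolar paralog of SULTR4;2, did not pass the test in either, at log2 fold changes of -0.10 ± 0.12 and 0.18 ± 0.12; it was named after its values were seen. SULTR3;3 was the transporter that rose in labelled ebs shl lhp1, by 0.58 on the log2 scale, and in emf1, to 51.4 ± 5.69 CPM. It was 1.41 lower on the log2 scale in labelled ebs shl lhp1 than in emf1. In lhp1, libraries lay wholly below WT for 0 of the 9 transporters, where 9.51% of all genes did, and wholly above it for 1. The share of all genes wholly above is not given for lhp1. In labelled ebs shl, libraries lay wholly below WT for 0 and wholly above it for 2, where 14% and 16.6% of all genes did. Nothing is read from these counts.

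Of 11 activation and reduction genes, 2 rose and 9 fell in labelled ebs shl lhp1, and 2 rose and 7 fell in emf1. APR1, a paralog of APR3, averaged 20.5 ± 12.6 CPM in labelled ebs shl lhp1 and 55.8 ± 47.9 in emf1, against 334 ± 61.0 in WT, at log2 fold changes of -4.04 ± 0.59 and -2.58 ± 0.54 (adjusted p = 3.35e-05 and 0.000916 in edgeR's quasi-likelihood test, with all mutant libraries below WT). In labelled ebs shl lhp1 APR2 fell by 3.01, and it also fell in emf1 (log2 fold change -1.62). The ATP sulfurylase APS3 averaged 2.45 ± 1.63 and 7.21 ± 3.73 CPM, against 43.5 ± 8.00 in WT. Its paralog APS4 went the other way and rose in all 4 mutants, to 77.0 ± 1.82 CPM in lhp1, 73.2 ± 8.06 in labelled ebs shl, 176 ± 25.2 in labelled ebs shl lhp1 and 63.2 ± 6.38 in emf1, against 45.9 ± 4.83 in WT. APS1, another ATP sulfurylase, fell by 0.38 in labelled ebs shl, a call lost without WT replicate 2 or 3 or replicate 1 or 3 of that mutant. APK2, which makes the sulfate donor used for glucosinolates, fell by 2.77 in emf1 and also fell in labelled ebs shl lhp1 (log2 fold change -2.54).

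Cysteine and glutathione genes moved both ways. Of 12 cysteine genes, 6 rose and 3 fell in labelled ebs shl lhp1, and 4 rose and 2 fell in emf1. The plastid serine acetyltransferase SERAT2;1 rose in labelled ebs shl lhp1 to 86.1 ± 32.4 CPM, against 36.2 ± 5.94 in WT. Its relative SERAT3;2 was 17.1-fold lower in the same comparison. OASC, the mitochondrial enzyme of cysteine synthesis, fell by 1.099 in labelled ebs shl lhp1 and by 1.49 in emf1. DES1, a cytosolic enzyme that breaks cysteine down, was higher in labelled ebs shl at 22.2 ± 2.99 CPM and lower in labelled ebs shl lhp1 at 2.89 ± 2.70 and in emf1 at 2.72 ± 0.358, against 7.91 ± 1.41 in WT. Its call in labelled ebs shl was lost when any 1 of the 6 libraries was left out, and that in labelled ebs shl lhp1 was lost with 2 genotypes only.

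Among 8 glutathione genes, 5 rose and 2 fell in labelled ebs shl lhp1 and 3 rose and 3 fell in emf1. GGCT2;1, which degrades glutathione in the cytosol and is itself a well known sulfur deficiency gene, averaged 0.264 ± 0.124 CPM in labelled ebs shl lhp1 and 1.87 ± 1.55 in emf1, against 25.2 ± 7.35 in WT. GGT1, which degrades glutathione outside the cell, rose to 46.8 ± 7.71 and 54.8 ± 22.9 CPM, against 19.96 ± 3.99 in WT. In labelled ebs shl GGCT2;2 fell by 0.61, a call lost without its replicate 2 or 3.

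Of 5 tested paralogs and co-induced genes, 1 rose and 4 fell in labelled ebs shl lhp1 and 1 rose and 3 fell in emf1. LSU3 averaged 0.213 ± 0.0440 CPM in labelled ebs shl lhp1 and 0.856 ± 1.34 in emf1, against 15.2 ± 6.42 in WT, at log2 fold changes of -6.07 ± 0.88 and -4.06 ± 0.70. AT3G51280, the transcript closest to SDI1 in sequence (71.2% identity over 48.4% of SDI1), fell by 3.10 and 2.97. BGLU30, a beta-glucosidase also induced by darkness, rose to 192 ± 145 CPM and 103 ± 36.0 CPM, against 7.81 ± 3.53 in WT, while BGLU28 was lower in both. LSU3 stood at log2 fold changes of -1.13 ± 0.55 in lhp1 and -1.63 ± 0.57 in labelled ebs shl, and did not pass the test in either.

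Glucosinolate synthesis genes are known to be turned down by low sulfur, unlike the 10 genes described above. All 10 tested genes of that list fell in labelled ebs shl lhp1 and in emf1. MYB29, a regulator of aliphatic glucosinolates, averaged 0.451 ± 0.522 CPM in labelled ebs shl lhp1 and 0.473 ± 0.601 in emf1, against 39.0 ± 4.76 in WT. CYP79F1, a cytochrome P450 that starts glucosinolate formation from elongated methionine, averaged 4.38 ± 4.69 and 3.41 ± 5.12 CPM, against 195 ± 0.616 in WT. MYB29 also fell in labelled ebs shl, by 1.22 on the log2 scale, a call lost with DESeq2 and without WT replicate 1 or 3 or replicate 1 or 3 of that mutant.

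Within the miRNeasy kit, 14 of the 59 pathway genes rose and 15 fell in labelled ebs shl lhp1 against emf1, where 23.6% of all genes rose and 20.5% fell. Activation and reduction genes accounted for 6 of the falls, among them APR1 by 1.47 and APS3 by 1.502. The call of APR1 was lost without emf1 replicate 2, at an adjusted p of 0.388 in edgeR's quasi-likelihood test, and without replicate 1 or 3 of labelled ebs shl lhp1; that of APS3 was lost without emf1 replicate 2. Both were lost with 2 genotypes only. APS4 rose by 1.48 and GGCT2;1 fell by 2.91. Of the 10 glucosinolate genes only the glucosyltransferase UGT74C1 passed the test, falling by 1.32.

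Genes with like profiles were looked up for SDI1 and LSU1. SULTR1;1, with no count in labelled ebs shl lhp1, has no fold change there to match. Among 19858 other genes, likeness was measured as the root mean square difference of the 4 fitted log2 fold changes against WT. Closest to SDI1 were GA3OX2, a gibberellin synthesis gene, at 0.22, AT3G12900 at 0.23 and SAUR22 at 0.40. Closest to LSU1 were the expansin EXPB1 at 0.40, AT4G16220 at 0.46 and the glutamate dehydrogenase GDH3 at 0.47.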

How the data were processed

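The deposited values are raw read counts per locus, 1 column per library, made by the authors with TopHat2 2.1.1, HTSeq and edgeR on TAIR10, per the submitters' processing notes; the strand setting of the counting is not given in the sources used here. Libraries came from a stranded mRNA kit, per the labels' protocols. In R 4.3.3, edgeR 4.0.16 (limma 3.58.1) kept 20477 loci with filterByExpr, scaled 15 libraries with TMM factors (0.817 to 1.15) and fitted 1 mean per genotype; 4571 loci had no count. The quasi-likelihood test used Benjamini-Hochberg adjustment over all tested loci and a threshold of 0.05. The SE of a log2 fold change is its absolute value divided by the square root of the F statistic of this test. The dispersion in that statistic is shared over all genotypes, so the spread of labelled ebs shl lhp1 and emf1 also enters the SE of the other comparisons. CPM are TMM-scaled, and 1 count was 0.0558 to 0.0949 CPM. On simulated counts the fit was tested with known fold changes in a small set of genes, balanced in direction. In labelled ebs shl lhp1 and emf1 most genes changed, so that setting cannot show how the scaling behaves there. Chi-square per degree of freedom was 4.48 to 26.7 between repeats, above counting noise. The labels call them biological repeats without saying what was kept separate, so p-values measure the spread between these samples. The 10 genes and the lists were chosen with earlier results of these data known.

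Named pathway genes were, per role and comparison, up to 3 changed genes with the largest fold change and at least 1 CPM in the higher group, or the most abundant gene if none changed. Like profiles were to be named for the 3 of the 10 genes with the largest fitted deviations; SULTR1;1, among them by fit, was left out for want of counts. Exon lengths, opposite-strand overlaps and copies (BLAST 2.17.0, 95% identity over 50% of the length; none found for the 10) come from TAIR10.1, a different release, so no coordinates or sequences are given and promoter motifs were not analysed here. SDI2, SULTR4;2 and APR3 overlap a gene on the opposite strand by 352, 30 and 27 bases. Groups followed the labels; comparisons were each mutant with WT and labelled ebs shl lhp1 with emf1. Alternatives were DESeq2 size factors, upper-quartile scaling, no filter, the DESeq2 1.42.0 test, 2 genotypes only, a replicate block, and each library left out.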

Additional observations from a re-analysis of the deposited data

How the results depend on the processing

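Over the alternatives run, no median of the 10 genes reversed its direction. Nor did any called pathway gene picked by the naming rule, while the other called pathway genes were not followed singly. For single genes of the 10 the sign turned under some alternatives. These included LSU1 (0.25) and BGLU28 (0.35, from 2 counts against 1) in labelled ebs shl lhp1 against emf1 without emf1 replicate 2. The count of changed genes in lhp1 was 269, but 524 with DESeq2's test and 471 with 2 genotypes only. With 2 genotypes only, changed pathway genes numbered 15 in place of 6 for labelled ebs shl against WT and 18 in place of 29 for labelled ebs shl lhp1 against emf1, and the median of the 10 was -4.07 for labelled ebs shl lhp1 and -1.66 for emf1 against WT, where 9 of the 10 genes could be tested. Without 1 library, changed genes ranged over 144 to 209, 950 to 1119, 13442 to 13943, 12096 to 13003 and 7875 to 8598 for lhp1, labelled ebs shl, labelled ebs shl lhp1 and emf1, each against WT, and for labelled ebs shl lhp1 against emf1. Changed pathway genes ranged over 1 to 2, 2 to 5, 49 to 51, 42 to 45 and 25 to 31 in that order, and medians of the 10 over -0.34 to -0.20, -0.76 to -0.49, -4.71 to -4.46, -3.20 to -2.20 and -2.03 to -0.70. Replicate numbers did not pair the libraries, since 3 of 30 same-numbered pairs had a correlation of deviations over 0.1 (range -0.33 to 0.17) and 1 of 15 libraries correlated best with its own number. With a replicate block 207, 1354, 14157, 12923 and 8593 genes changed, and 1, 4, 50, 44 and 27 pathway genes. Refits of the named pathway genes kept the call 704 times and lost it 51 times; beside those given with the genes above, SHM7, CYSD2, SULTR3;4, SULTR2;2 and EIL1 lost it in labelled ebs shl lhp1 against emf1. With the replicate block the calls of EIL1 in lhp1, DES1 and MYB29 in labelled ebs shl and SULTR3;4 in labelled ebs shl lhp1 against emf1 were not made. The limits of depth touch SULTR1;1, BGLU28, LSU1 and SDI1, which rest on 0 to 9 counts in labelled ebs shl lhp1.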

Other observations

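The opposite-strand neighbours of the 10 genes gave values of their own. VAMP726, beside SDI2, averaged 0.492 CPM in labelled ebs shl lhp1, 0.528 in emf1 and 2.13 in WT. APG8A, an autophagy gene beside APR3, averaged 44.4 CPM in labelled ebs shl lhp1, 19.2 in emf1 and 24.5 in WT. Markers of floral organs (AP3, PI, AG and SEP3) summed to 177 to 199 CPM in lhp1, 207 to 229 in labelled ebs shl, 326 to 436 in labelled ebs shl lhp1, 142 to 175 in emf1 and 4.08 to 5.19 in WT. Different genes carried these sums. In emf1 PI averaged 158 CPM, while AP3 was at 0.68, SEP3 at 3.89 and AG at 0.329, and AG did not pass the test there. In lhp1 SEP3 averaged 133 CPM, AG 22.9, PI 19.1 and AP3 16.5. The part of floral organs in the levels of the 10 genes was not tested.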
